A study of Daphnia magna with 24 samples.

Results

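A set of 142 array features was strongly negative in animals kept in water from every mine-water site at Greenhorn Mine, California. They were 142 of 7680 features on the array, and of the 7388 that had values in at least 2 exposures at each of 4 sites. Each array was centred on its median, both dye-swap arrays of an exposure were averaged, and a feature was kept where it met 3 conditions. All its measured exposures to water of the entry, downstream 1 and downstream 2 sites lay below 0. Each of these 3 site means was at most -0.4. The mean of the 3 site means was at most -1.0. The mine-water values therefore chose the members, and they are given here as a description without a test.

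The animals were Daphnia magna, a small freshwater crustacean, from a purchased culture that the labels call genetically homogeneous. Adult females aged 14 to 16 days were kept for 24 h at 23.5 °C, and 10 to 15 were pooled as whole animals for each exposure. Water came from the point where mine drainage enters (entry), from a first and a second position downstream of it (downstream 1 and downstream 2) and from upstream of the mine (upstream), with 3 exposures each. Every exposure was set against unexposed animals in COMBO, a defined freshwater medium in which the animals were also cultured, on 2 arrays with the dyes exchanged. All groups, upstream included, thus differ from the control by field water against COMBO as well as by site. Copper in the water differed between sites, per the design text, but no concentrations are given. The labels do not say whether the exposures of a site used separate cultures or shared control RNA, so that p-values measure the spread between these exposures.

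Daphnia reproduce by cloning under good conditions, filter large volumes of water and are a standard animal of aquatic toxicology. Copper is an essential cofactor of respiratory and antioxidant enzymes, and in excess it binds proteins, promotes oxidative damage and disturbs sodium uptake across the gills of freshwater crustaceans. In an array ratio of whole animals, less RNA per cell and fewer cells of a type cannot be told apart.

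Each deposited value is a log ratio between the 2 channels of an array. The values are taken as log2, although the base is not given, so that folds hold only if it is 2. Exposed over control is the likely direction but is not stated, and signs are therefore written as negative and positive. Dye-swap partners correlated positively in 12 of 12 exposures, with r across features lowest in upstream exposure 3 (0.15) and highest in downstream 2 exposure 3 (0.78). Arrays held 7015 to 7472 values, and the number of exposures limits the precision. The features carry array IDs only. A table of Daphnia genes matched 0 of the 7680 IDs, so no gene name, role or sequence is attached to any member. Different IDs can hold cDNA of the same gene, and members are not replicates of one another.

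Of the features tested, 565 were below 0 in all measured mine-water exposures, which is 7.65%. Each site mean was at most -0.4 in 325 of these, and 142 also reached a mean of -1.0, or 1.92% of features tested. The other 183 had a mean above -1.0. All 142 members had a value in all 12 exposures, and 119 had one on all 24 arrays. Of 2531 single-array values of members in mine water, 3 were at or above 0, in 3 members.

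The members' means over the 3 mine-water sites ran from -2.53 to -1.0002 with a median of -1.22. The median member was thus 2.34-fold negative and the most extreme 5.78-fold, if the base is 2. Means were above -1.2 in 63 members, at or below -1.5 in 31 and at or below -2 in 5. Just inside it were P1CH7, P3BG7 and P6BC3, with means of -1.004, -1.001 and -1.0002. Just outside it were P13BB6, P6BG11 and P3BA9, with means of -0.99, -0.99 and -0.98.

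**Figure D1:**
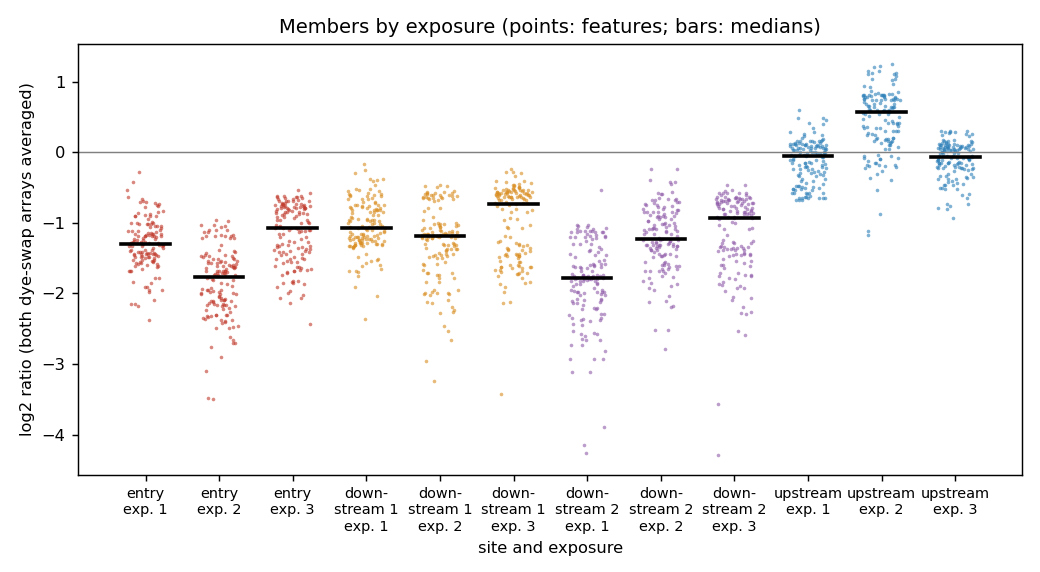
Log2 ratio (vertical axis) of the 142 members in each of 12 exposures (horizontal axis, by site), with both dye-swap arrays averaged. Points are features and bars are medians, which lie between -1.79 and -0.73 in the 9 mine-water exposures and at -0.05, 0.57 and -0.06 in the 3 upstream exposures.

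By site, the members' means had medians of -1.36 for the entry, -1.04 for downstream 1, -1.32 for downstream 2 and 0.07 for upstream. The exposures of a site differed. The median member stood at -1.29, -1.77 and -1.07 in entry exposures 1, 2 and 3. It stood at -1.07, -1.19 and -0.73 at downstream 1. At downstream 2 it stood at -1.79, -1.22 and -0.93, against -0.05, 0.57 and -0.06 upstream. Entry exposure 2 and downstream 2 exposure 1 were the most negative, downstream 1 exposure 3 was the least negative of mine water, and upstream exposure 2 stood apart as positive. As the mean ± SD of these exposure medians (n = 3), the sites were at -1.38 ± 0.36, -0.995 ± 0.24, -1.31 ± 0.43 and 0.15 ± 0.36 in the same order.

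At 3 of the 4 sites the same exposure was extreme in most members. Entry exposure 2 was the lowest of its site in 109 of 142 members (76.8%, against 34.7% of all features with 3 entry values). Downstream 2 exposure 1 was the lowest of its site in 106 members (74.6%, against 35.6% of all features). Upstream exposure 2 was the highest of its site in 117 members (82.4%, against 36.3% of all features). At downstream 1 no exposure was lowest or highest in most members, with 48, 68 and 26 lowest and 60, 13 and 69 highest in exposures 1, 2 and 3. The members varied between exposures more than other features did. Their median SD was 0.51 for the entry, 0.40 for downstream 1, 0.54 for downstream 2 and 0.40 for upstream, against 0.17, 0.15, 0.20 and 0.26 over all features tested. The rule asked for large values in mine water, so that the larger spread there stands beside larger levels.

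P13DA2 had the lowest mean of all members, -2.53. Its log2 ratios were -1.68, -3.49 and -2.06 at the entry, -2.04, -2.96 and -1.48 at downstream 1 and -4.26, -2.51 and -2.29 at downstream 2. Upstream it was at -0.49, 0.79 and 0.13. Its highest mine-water exposure lay below its lowest upstream exposure, yet the exposures of a site lay far apart. P9AG7 ran closely with it, at -1.57, -3.48 and -1.86 at the entry, -1.61, -2.67 and -1.55 at downstream 1, and -4.15, -2.04 and -1.90 at downstream 2. Its upstream exposures were at -0.50, 0.95 and 0.12. Both features were lowest in downstream 2 exposure 1 and highest in upstream exposure 2. A6D11 and A6M13 had that order too, with -3.90 and -3.11 in downstream 2 exposure 1 and 0.75 and 1.09 in upstream exposure 2.

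P11CC4 was nearly as negative with less spread. It stood at -2.38, -1.98 and -1.68 at the entry, -2.37, -2.19 and -2.12 at downstream 1, and -2.29, -2.79 and -2.54 at downstream 2. Its upstream exposures were at 0.01, 0.27 and 0.25. As mean ± SD (n = 3 each) this was -2.01 ± 0.35, -2.23 ± 0.13, -2.54 ± 0.25 and 0.17 ± 0.15 for entry, downstream 1, downstream 2 and upstream. A6E16 was the steadiest member, with an SD of at most 0.15 at any site, against 0.67 for the median member. It stood at -1.65, -1.46 and -1.36 at the entry, -1.75, -1.84 and -1.79 at downstream 1, and -1.98, -2.10 and -1.96 at downstream 2. Upstream it was at -0.002, 0.05 and 0.01. P2AA10 followed, with site SDs up to 0.18, at -1.83, -1.77 and -1.49 at the entry, -1.59, -1.78 and -1.91 at downstream 1, -1.98, -2.17 and -2.19 at downstream 2 and 0.12, 0.35 and 0.18 upstream. P11DG2 was at -1.90, -1.81 and -1.39 at the entry, -1.90, -2.001 and -1.98 at downstream 1, -2.11, -2.12 and -2.10 at downstream 2 and 0.08, 0.15 and 0.15 upstream. These 4 features all had their most negative site mean at downstream 2.

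Among the 12 members of lowest mean were also P13CD12 (-2.26), P7CD11 (-1.85), P8DF1 (-1.81) and P2CA10 (-1.74). P13CD12 was at -1.63, -2.70 and -2.43 at the entry, -1.57, -2.23 and -2.14 at downstream 1, -3.11, -1.93 and -2.59 at downstream 2 and 0.29, 0.81 and -0.27 upstream. The value of P8DF1 rested in part on a single array. Its downstream 2 exposures were at -1.74, -1.59 and -4.29, and the last of these rested on the array with exposed RNA in Cy3 alone, because its partner had no value.

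Few other members turned on 1 array. Over 1253 pairs of dye-swap values of members in mine water, the median difference between partners was 0.32, and 7 pairs in 7 members differed by over 2. The widest was A4J24 in downstream 1 exposure 2, at -0.75 with exposed RNA in Cy5 and -5.72 with it in Cy3. A6F3 in downstream 1 exposure 3 was at -4.96 and -1.88, and A6H10 in downstream 2 exposure 3 at -2.21 and -4.91, in the same order of dyes. Their site means rest in part on these single values.

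Upstream water against control was not used to choose the members. In limma's test over 7388 features, 0 of 142 members changed at an adjusted p under 0.05, and so did 0 of all features (0.0%), and the lowest adjusted p among members was 0.77. At an unadjusted p under 0.05 there were 3 members, which is 2.11%, against 6.5% of all features (3.55% positive and 2.95% negative). They were P2AA10, with an upstream mean of 0.21, P11AF9 (-0.31) and A6K4 (-0.39), and A6K4 was named after its values were seen. In upstream exposure 3, P11AF9 was at 0.09 with exposed RNA in Cy5 and -1.12 with it in Cy3. Its mean thus rests in part on 1 array. The 95% interval of the upstream mean, taken without adjustment for multiple tests, held 0 in 139 members and reached 0.60 to either side for the median member, against 0.30 for the median of all features. The width differed between features.

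The members' upstream means ran from -0.61 to 0.55, and 123 of 142 (86.6%, against 83.0% of features tested) lay within 0.3 of 0. They were above 0 in 95 members (66.9%, against 47.1%). Upstream exposure 2 carried this: 117 members were above 0 in it (82.4%, against 52.2% of features), while 59 were in exposure 1 (41.5%, against 50.3%) and 63 in exposure 3 (44.4%, against 47.9%). Without exposure 2 the median upstream mean of members was -0.13, in place of 0.07. From the Cy5 orientation alone it was 0.25 and from the Cy3 orientation alone -0.09, so that the sign of this small median depended on the arrays used.

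In 23 members (16.2%, against 11.3% of features) all 3 upstream exposures were above 0, and in 7 (4.93%, against 8.41%) all were below 0. Without upstream exposure 2 these counts were 30 and 50, where only 2 exposures had to share a sign, so that they could not fall. The shares of all features under that condition were not taken. P9BE3 and P2CA10 had the highest upstream means, 0.55 ± 0.58 and 0.55 ± 0.59 (SD, n = 3). P9BE3 was at 0.16, 1.22 and 0.28 upstream, P2CA10 at 0.12, 1.22 and 0.30, and A6P23 at 0.25, 1.04 and 0.28. Their exposure 2 stood well above the other exposures. The lowest upstream means were -0.61 ± 0.58 for A5F10, -0.49 ± 0.24 for A6D9 and -0.39 ± 0.68 for A1M21. A5F10 was at 0.03, -1.12 and -0.73 upstream, against -2.15, -1.05 and -0.74 at the entry, so that its upstream exposures overlapped those of mine water. A1M21 was at -0.04, -1.17 and 0.04 upstream, with exposure 2 as its low value. A6D9 was at -0.32, -0.39 and -0.76 upstream, all above its entry values of -1.85, -2.31 and -1.03. The last of its upstream values rested on the array with exposed RNA in Cy3 alone, because its partner had no value. None of these 6 passed limma's threshold (adjusted p 0.77 to 0.79).

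Every upstream exposure lay above every mine-water exposure in 110 of 142 members, and in 3.27% of all features with 12 values. The rule fixed the mine-water side of that count, so nothing is read from it. The mine-water mean minus the upstream mean ran from -2.67 to -0.41, with a median of -1.29. By site the median difference from upstream was -1.45 for the entry, -1.10 for downstream 1 and -1.44 for downstream 2. As a further description, limma called 126, 52 and 125 members negative against control at the entry, downstream 1 and downstream 2, where it called 2.83%, 1.07% and 3.14% of all features. These contrasts chose the members, and nothing is read from these counts either.

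**Figure D2:**
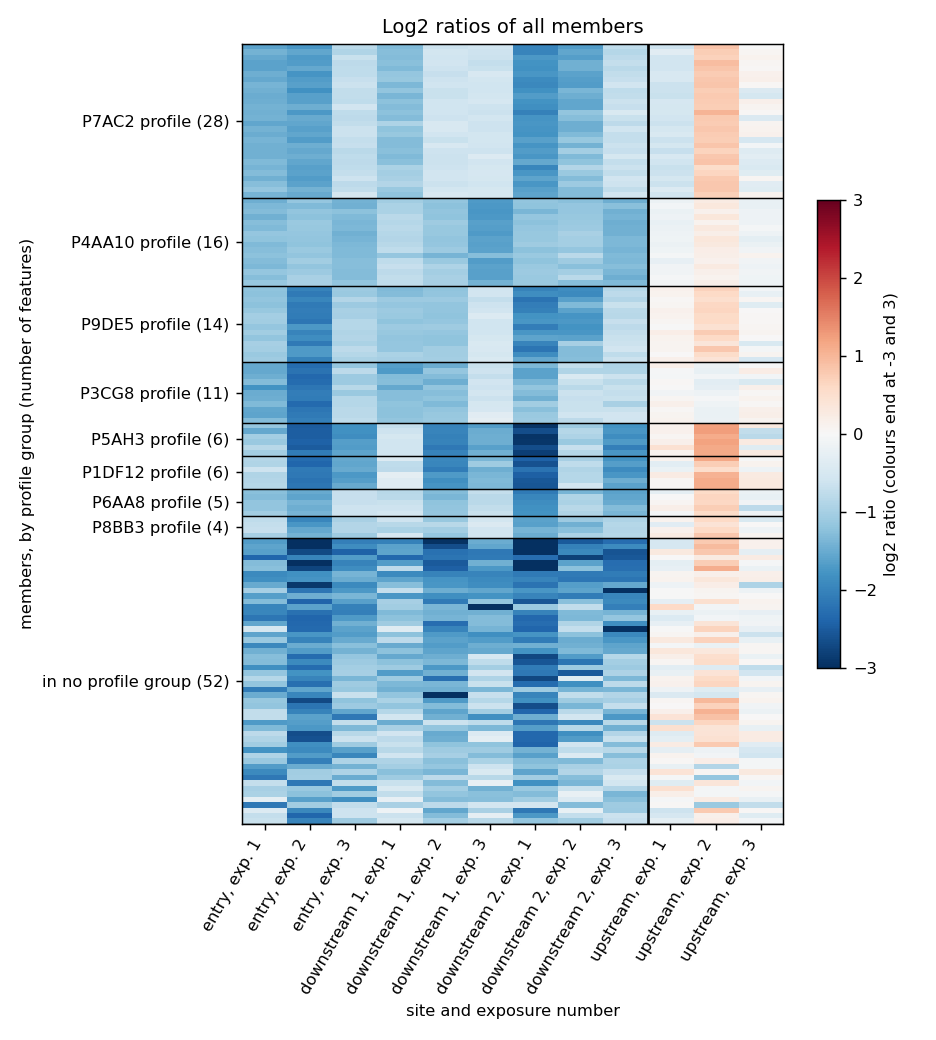
Log2 ratio (colour, from blue for negative to red for positive, ending at -3 and 3) of each of the 142 members (rows) in 12 exposures (columns), with the 3 upstream exposures right of the heavy line. Rows are ordered by the 8 profile groups and then the 52 members in no group, and blocks of like rows are seen within each group.

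Differences between the mine-water sites come from the values that chose the members. The rule set the same bounds for all 3 sites, which limits their levels without setting their order, and the members' levels are larger than those of most features. The counts and shares that follow are therefore a description, and the limma fit over all features is given for the error of each difference. For downstream 1 minus the entry, limma called 0 of 142 members and 0 of 7388 features (0.0%), with 5 members (3.52%) and 0.555% of features at an unadjusted p under 0.05. The difference had a median of 0.38 over members and ran from -0.33 to 0.78, beside a median of 0.04 over all features. It was negative in 10 members (7.04%, against 38.0% of features), so downstream 1 was the less negative site in the other members. Without entry exposure 2 the median difference was 0.10, and without entry exposure 3 it was 0.54. The exposures of downstream 1 lay wholly above those of the entry in 4 members (2.82%, against 3.37% of features) and wholly below in 1 (0.704%, against 1.8%).

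For downstream 2 minus the entry, limma called 0 members and 0 features (0.0%), with 8 members (5.63%) and 3.42% of features at an unadjusted p under 0.05. The median difference was -0.02, from -0.90 to 0.77, beside 0.01 over all features, and it was negative in 77 members (54.2%, against 47.5%). Exposures did not overlap in 3 members that were lower at downstream 2 and 3 that were higher (2.11% each, against 3.39% and 3.29% of features). For downstream 2 minus downstream 1, limma again called 0 members and 0 features (0.0%), with 3 members (2.11%) and 3.55% of features at an unadjusted p under 0.05. The median was -0.38, from -1.29 to 0.64, beside -0.02 over all features, and the difference was negative in 116 members (81.7%, against 54.5%). Without downstream 2 exposure 1 this median was -0.08. Exposures did not overlap in 6 members that were lower at downstream 2 (4.23%, against 4.44%) and in 0 that were higher (3.54% of features). The lowest adjusted p over all 3 comparisons was 0.81.

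Downstream 1 was the least negative site in 109 members, downstream 2 in 26 and the entry in 7. The most negative site was downstream 2 in 77 members, the entry in 62 and downstream 1 in 3. Shares of all features are not given for these orders, so nothing is read from them about the members. For the median member the 95% interval of a difference between sites reached 0.85 to either side, against 0.42 for the median of all features. The median differences of 0.38 and -0.38 lie within it. That interval takes the exposures as unpaired. Entry and downstream 1 exposures that share a number moved together around their site means (r across all features from 0.404 to 0.525). Downstream 2 exposures did not do so throughout. Their r was -0.191, -0.310 and 0.497 with downstream 1, and -0.455, -0.387 and 0.446 with the entry. By exposure number, the median of downstream 1 minus the entry over members was 0.23, 0.65 and 0.20, and it was positive in 119, 129 and 104 of 142 members (83.8%, 90.8% and 73.2%, against 56.4%, 55.6% and 55.6% of features measured in both). In a limma fit of these 2 sites with the exposure number as a block, the median half-width was 0.51, 0 members and 0 features were called, and 30 members (21.1%, against 4.64% of features) had an unadjusted p under 0.05. With no call in either fit, no order of the sites is shown for a single member.

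**Figure D3:**
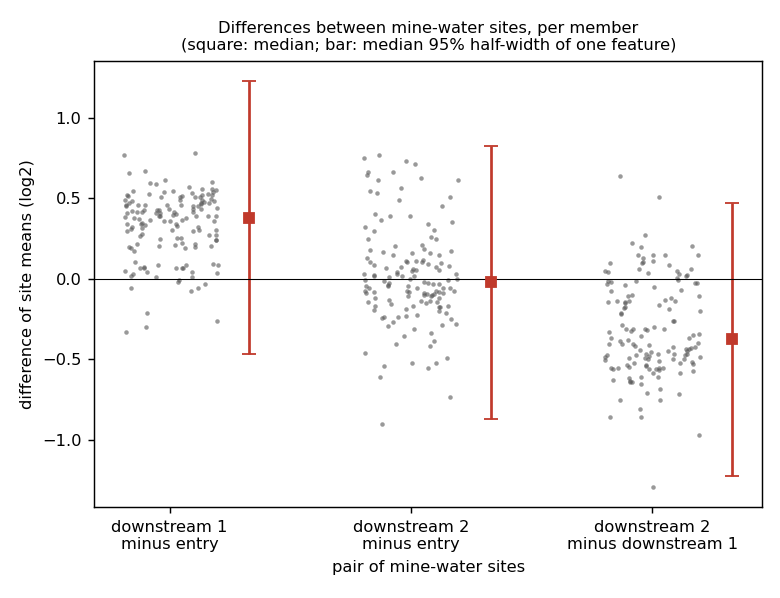
Difference of site means in log2 (vertical axis) for each member (points) in the 3 pairs of mine-water sites (horizontal axis). Squares are the medians, 0.38, -0.02 and -0.38, and bars reach 0.85 to either side, the median 95% half-width of a single feature, so that all 3 bars cross 0.

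Some single members differed between sites by more than the spread of their exposures, though none passed over all features. P11AF9 was at -0.82, -1.07 and -1.07 at downstream 1, against -1.78, -1.90 and -1.63 at the entry, without overlap. The difference was 0.78 (95% half-width 0.40, limma adjusted p 1.0). At downstream 2 it was at -1.42, -0.76 and -0.83, and the difference from the entry was 0.77. P10DD3 was at -1.33, -1.45 and -1.44 at downstream 1, against -1.95, -2.23 and -2.06 at the entry, a difference of 0.67 (half-width 0.36). P6BC11 was at -1.23, -1.40 and -1.31 at downstream 1, against -2.17, -2.38 and -1.69 at the entry, a difference of 0.77 (half-width 0.64). In these 3 features the entry was the most negative site.

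In A6E16 the entry was instead the least negative site and downstream 2 the most negative. Downstream 1 differed from the entry by -0.30 (half-width 0.21, limma adjusted p 1.0), downstream 2 from the entry by -0.52 (adjusted p 0.81) and downstream 2 from downstream 1 by -0.22 (adjusted p 1.0). Its exposures did not overlap in any of the 3 comparisons. P11DG2 differed by -0.26 for downstream 1 minus the entry and P2AA10 by -0.42 for downstream 2 minus the entry (half-width 0.28).

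Larger differences had wider errors. P8DF1 had the largest negative difference for downstream 2 minus the entry, -0.90, and for downstream 2 minus downstream 1, -1.29 (half-width 1.41 each). Without downstream 2 exposure 3 they were -0.03 and -0.42. A6H10 followed with -0.73 and -0.97 (half-width 1.60), which were -0.06 and -0.30 without that exposure. A4J24 was at -0.33 for downstream 1 minus the entry and 0.51 for downstream 2 minus downstream 1, and without downstream 1 exposure 2 these turned to 0.44 and -0.26. A6F3 was at 0.64 for downstream 2 minus downstream 1 and -0.10 without downstream 1 exposure 3. The values of these 4 features thus turned on 1 exposure each. P3CC12 and P9CG7 were at 0.75 and 0.73 for downstream 2 minus the entry (half-widths 0.76 and 0.81), and P8DH5 at 0.27 for downstream 2 minus downstream 1. These 3 share a profile described next.

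Many members had nearly the same values in every exposure. Members were grouped by the root mean square difference of their log2 ratios over the 9 mine-water exposures (average linkage, at most 0.25, at least 4 members). This gave 8 groups with 90 members, or 63.4%, and left 52 in none. A group is called by its most central feature. The grouping was made after the values were seen and is a description.

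The P7AC2 profile was the largest, with 28 features, all with IDs that start with P, from 11 blocks of IDs. Its group means were -1.44, -1.61 and -0.73 at the entry, -1.199, -0.60 and -0.57 at downstream 1, -1.78, -1.37 and -0.68 at downstream 2 and -0.56, 0.78 and -0.12 upstream. The 28 features lay within 0.31 of each other by root mean square, with a median of 0.15. They were least negative in exposure 3 of each mine-water site, though by little at downstream 1. Within a root mean square of 0.25 of the group mean lay 34 features, of which 29 were members. The other 5 had means from -0.99 to -0.92 and are no members, so the threshold passes through this group.

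The P4AA10 profile, with 16 features, was nearly level. Its means were -1.29, -1.14 and -1.33 at the entry, -0.85, -1.12 and -1.62 at downstream 1, -1.16, -1.08 and -1.38 at downstream 2 and -0.14, 0.22 and -0.14 upstream. Here exposure 3 was the most negative of each mine-water site, though by little at the entry, the reverse of the P7AC2 profile. The P9DE5 profile, with 14 features, had means of -1.12, -1.97 and -0.94 at the entry, -1.14, -1.14 and -0.55 at downstream 1, -1.91, -1.56 and -0.73 at downstream 2 and 0.09, 0.59 and -0.09 upstream. The P3CG8 profile, with 11 features, included P3CC12, P9CG7 and P8DH5. It stood at -1.48, -2.20 and -0.92 at the entry, -1.36, -1.26 and -0.55 at downstream 1, -1.30, -0.69 and -0.74 at downstream 2 and 0.04, -0.18 and 0.04 upstream. It was the least negative of the 8 profiles in downstream 2 exposure 2 and the only one of the 8 with a negative mean in upstream exposure 2.

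The P5AH3 and P1DF12 profiles, with 6 features each, had the widest swings. The P5AH3 profile stood at -1.12, -2.41 and -1.73 at the entry, -0.61, -2.02 and -1.53 at downstream 1, -2.82, -0.92 and -1.82 at downstream 2 and 0.17, 1.18 and -0.18 upstream. P2CA10 and P9BE3 belong to it, and in upstream exposure 3 its features ran from -0.81 to 0.30. The lowest was P5AH3 itself, at 0.42 with exposed RNA in Cy5 and -2.03 with it in Cy3. P4CD9 was at 0.40 and -1.87 in the same order. The group mean of -0.18 there thus rests in part on the Cy3 array. The P1DF12 profile, which holds A6P23, stood at -0.84, -2.22 and -1.58 at the entry, -0.50, -1.89 and -1.33 at downstream 1, -2.47, -0.82 and -1.69 at downstream 2 and -0.01, 0.95 and 0.14 upstream. These 2 profiles ran in parallel, and both had the most negative downstream 2 exposure 1 and the highest upstream exposure 2 of the 8. They were hardly distinct, since their means differed by a root mean square of 0.198, under the 0.25 used for grouping. Within 0.25 of the P5AH3 mean lay 12 members, and within 0.25 of the P1DF12 mean 11. The P6AA8 and P8BB3 profiles held 5 and 4 features, with means over the 9 mine-water exposures of single features from -1.27 to -1.05 and from -1.07 to -1.0002.

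**Figure D4:**
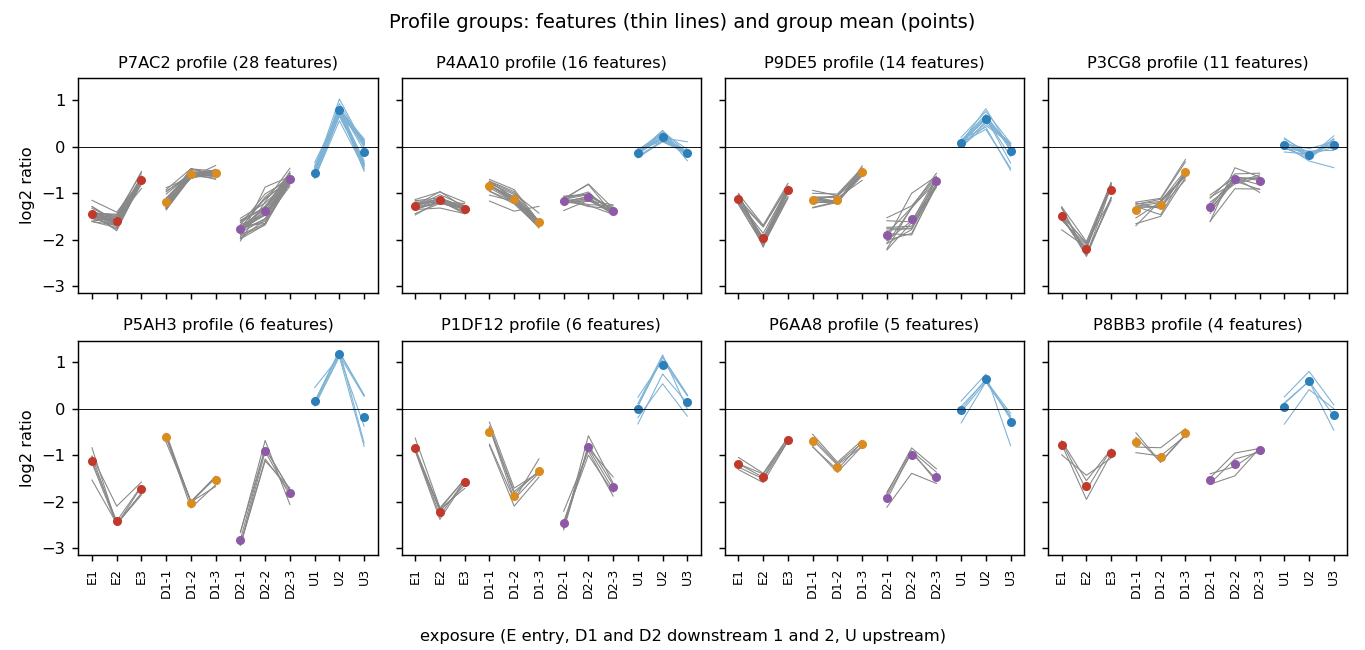
Log2 ratio (vertical axis) in 12 exposures (horizontal axis) for the features of each of 8 profile groups (thin lines, joined within a site only to follow a feature) and their mean (points, coloured by site). The groups were formed on the 9 mine-water exposures, and the upstream exposures at the right of each panel also differ between groups, from -0.18 to 1.18 in upstream exposure 2.

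The upstream exposures took no part in the grouping. Between-group differences made up 87.1% of the variance of the 90 grouped members in upstream exposure 1, 92.7% in exposure 2 and 14.6% in exposure 3. In exposure 1, pairs of members of a group differed by a median of 0.08, and pairs from different groups by 0.37. In exposure 2 these medians were 0.08 and 0.46, and in exposure 3 they were 0.13 and 0.24. In upstream exposure 2 the 28 features of the P7AC2 profile lay between 0.56 and 1.03 and the 11 of the P3CG8 profile between -0.31 and -0.04, without overlap. The features of a group may share a gene or a transcript, which was not tested because the IDs carry no sequence here. The number of groups depended on the distance allowed, with 7 groups of 70 members at 0.2, 7 of 94 at 0.3 and 6 of 104 at 0.35.

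Upstream exposure 3, in which the groups were least distinct, had the weakest agreement of its dye-swap arrays. Of the 28 features of the P7AC2 profile, 11 lay between -1.11 and -0.77 on the array with exposed RNA in Cy3, and the other 17 between -0.31 and 0.12. On its partner with exposed RNA in Cy5 the same 11 lay between 0.04 and 0.21 and the 17 between 0.13 and 0.29. The last number of the ID was odd in all 11 and in 6 of the 17. Over all members with both values, the Cy5 array exceeded the Cy3 array by over 0.6 in 37 of 141 (26.2%, against 4.1% of features), and 34 of these 37 had an odd last number. Of all 285 features with such a gap, 233 had an odd last number, so that the skew was not particular to members. Odd last numbers made up 49.1% of features. Over all features the share with such a gap was 6.83% for odd and 1.47% for even last numbers. The sources used here do not say where on the array these features sit, and the origin of the split was not tested. Without this Cy3 array the members' median upstream mean was 0.14, and limma still called 0 members.

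**Figure D5:**
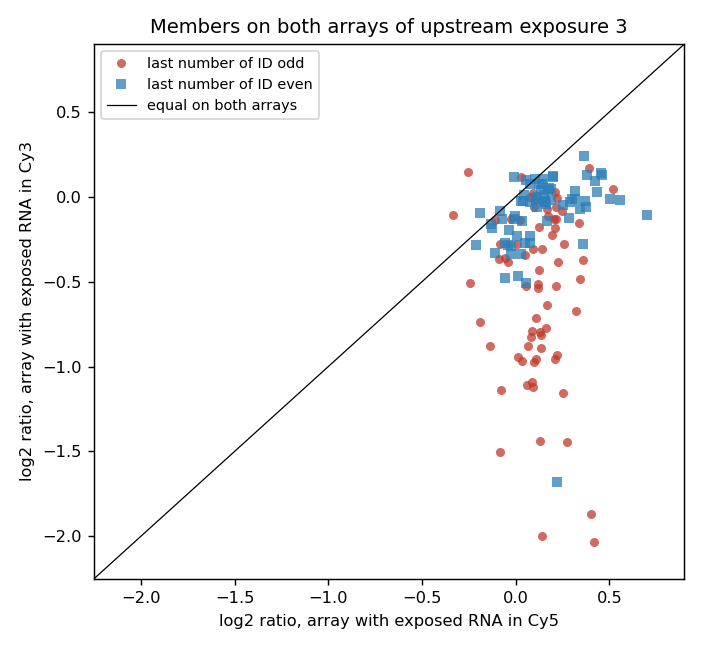
Log2 ratio of members in upstream exposure 3 on the array with exposed RNA in Cy3 (vertical axis) against the array with exposed RNA in Cy5 (horizontal axis), marked by whether the last number of the ID is odd (circles) or even (squares). The line marks equal values, and 34 of the 37 members more than 0.6 below it have odd numbers.

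A dye effect, taken as the Cy5-labelled exposed array less its partner, divided by 2, was tested because the rule averaged it out. It passed limma's threshold in 96 of 142 members (67.6%, against 57.4% of 7210 features), and it was positive in all 96 (32.7% of features were called positive and 24.7% negative). The median member had a dye effect of 0.15, so that members were more negative with exposed RNA in Cy3. The largest were 0.56 for P13DA2, 0.37 for P2CA10 and 0.33 for P4CD9 (limma adjusted p 2.7e-05, 4.6e-06 and 0.0022). In upstream exposure 3, P4CD9 was at 0.40 with exposed RNA in Cy5 and -1.87 with it in Cy3. Its dye effect thus rests in part on that pair. The dye effect cancels where both arrays of an exposure are averaged. It does not where an array value was missing, which was so for 28 array values of members.

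The members were spread unevenly over the IDs, which start with A or P and fall into 20 blocks of 384. IDs starting with A made up 28 members (19.7%, against 33.2% of features tested). Block A6 alone held 19 members (13.4%, against 5.14% of features tested), among them A6D11, A6M13 and A6E16, and 14 of these 19 belonged to no profile group. The sources used here do not say what the blocks stand for.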

How the data were processed

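Whole-animal RNA of 12 exposures was measured on 24 two-colour arrays, 2 with exchanged dyes per exposure. The deposited values are log ratios, taken as log2. Scanner, background correction, spot filters, the authors' normalization, log base and direction were not given in the sources used here. Deposited array medians lay between -0.0359 and 0.0257. Exposures were grouped by the site named in the labels.

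Array medians were set to 0 and dye-swap partners averaged, which leaves 1 replicate per exposure. All 12 exposures entered a fit in limma 3.58.1 (lmFit and eBayes, R 4.3.3). Residual degrees of freedom were 8 and prior ones 1.79. Upstream was tested against 0 and mine-water sites by contrasts, two-sided, with Benjamini-Hochberg adjustment over 7388 features. The dye effect was tested likewise over 7210 features with both arrays in at least 6 exposures. The steps were tested on simulated data. Profile groups used scipy 1.17.1, and figures matplotlib 3.10.9.

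Differences of dye-swap partners correlated positively between exposures (66 of 66 pairs, r from 0.278 to 0.755), so the arrays run one way. Over 132 pairs of arrays with the same dye orientation, r ran from -0.258 to 0.828.

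The members, lists and naming rule were chosen with earlier results of these data known. Named are the 12 members of lowest mean, the 3 highest and 3 lowest upstream means, the 3 largest differences each way per pair of mine-water sites, the 3 largest dye effects and 3 features on either side of the mean threshold. Members past the adjusted threshold upstream or between sites would also be named, and there were 0.

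Exposure numbers come from the labels, which do not say what they mark. Across features, deviations from site means of same-numbered exposures correlated above 0.1 in every pair for entry with downstream 1 (lowest 0.404) and downstream 2 with upstream (lowest 0.248), and not for the other 4 pairs of sites. Alternatives tried were scaled, uncentred and weighted arrays, all 24 arrays with exposure as a random block, each dye orientation alone, features with all 12 exposures, only the sites compared, the exposure number as a block, each exposure left out, and other thresholds.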

Additional observations from a re-analysis of the deposited data

Results flagged for a closer look

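In 23 members every mine-water exposure was below 0 and every upstream exposure above 0. They stand here because all exposures of one kind had one sign and all of the other kind the opposite. The difference was not tested, since the negative side was fixed by the choice of members. Without upstream exposure 2 it was 30 members, where only 2 exposures had to lie above 0. Among the features named above these were P11CC4, P11DG2 and P2AA10, with upstream means of 0.17, 0.13 and 0.21. They also included P2CA10, P9BE3, A6P23 and P6BC3, with upstream means of 0.55, 0.55, 0.52 and 0.38, and in these 4 upstream exposure 2 was the highest. With exposed RNA in Cy3 alone all upstream exposures were above 0 in 7 members, and with Cy5 alone in 56. The shares of all features were not taken for these alternative counts.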

How the results depend on the processing

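Of 218 alternative counts of members and of calls and medians over members, 217 gave a count within 1.5 times or a median within the spread between exposures, the exception being the number of members, which was 79 with a mean threshold of -1.2 (209 with -0.8). Signs were less stable. The upstream median changed sign in 2 of 23 alternatives and that of downstream 2 minus the entry, -0.02, in 6 of 23. Those of the other 2 comparisons changed sign in 0. Leaving out an exposure of a site outside a comparison cannot move its median. These counts of alternatives, and the 217 of 218, therefore overstate the stability. The number of members was 121 to 164 with each exposure left out, 102 with exposed RNA in Cy5 alone (99 shared) and 196 with Cy3 alone (139 shared). For upstream against control and all 3 differences between mine-water sites, 0 members were called under every alternative, which does not show that sites were alike. Taking the exposure number as replicate block and fitting only both sites, 0 members were called in each, though 30 members for downstream 1 minus the entry (21.1%, against 4.64% of features), 3 for downstream 2 minus the entry (2.11%, against 4.66%) and 21 for downstream 2 minus downstream 1 (14.8%, against 4.89%) had an unadjusted p under 0.05. Same-numbered exposures of downstream 2 did not move together throughout with the entry (r -0.455 to 0.446) or downstream 1 (-0.310 to 0.497). The block is thus not borne out for the comparisons with downstream 2. With each exposure left out, the median over members was -0.13 to 0.19 upstream, 0.10 to 0.54 for downstream 1 minus the entry, -0.20 to 0.21 for downstream 2 minus the entry and -0.47 to -0.08 for downstream 2 minus downstream 1. With array weights these last 3 medians were 0.51, 0.24 and -0.21. The dye effect was called in 84 to 103 members with each exposure left out and in 107 with scaled arrays. Among 1511 values of single features and of the 1-signed upstream counts, 43 moved by more than the spread between exposures or by over 1.5 times. A change of direction past a threshold could not occur, because no member was called. Signs of single differences did change, as in A4J24 above. Centring A and P features separately, leaving out the upstream exposure 3 Cy3 array, and the block with only both sites were chosen after seeing the data. No intensities were used here, so signal over background is unknown.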
